A study of Sus scrofa with 24 samples.

Results

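Solute carrier genes encode the membrane transporters that move sugars, amino acids, ions, metals and metabolites across the cell surface and the membranes of organelles. They were followed here in a pig model of the stenosis that forms at arteriovenous haemodialysis grafts. A member was any gene whose symbol on the array has the SLC form (SLC, a family number, A and a member number), in the gene name or in brackets in the probe description, apart from SLC11A1 and SLC2A1. This gave 72 genes on 93 probes, of 5806 different symbols and 40938 features measured in all. Each gene was represented by its brightest probe. By substrate they fell into 13 classes, of which amino acid carriers (15), ion exchangers and cotransporters (11), glucose and other hexose carriers (10), mitochondrial carriers (6), fatty acid, choline and bile acid carriers (6) and metal carriers (5) were the largest.

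The samples were total RNA of 3 vein sites: the venous anastomosis, the vein downstream of it, and the external jugular vein as control. Each site was taken 5 and 14 days after graft placement, with 4 biological replicates, which gave 24 samples in 6 groups of 4: anastomosis day 5, downstream day 5, jugular control day 5, anastomosis day 14, downstream day 14 and jugular control day 14. The labels give neither strain, age nor sex, and do not say whether the control vein came from the grafted animals. Every anastomosis and downstream sample was labelled with Cy5 and every jugular control with Cy3, so that dye and site cannot be told apart in a comparison with the control.

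The share of probes well above background ranged from 56.9% to 80.2% over the samples. The samples of replicates 1 and 2 lay at 56.9% to 73.9%, those of replicates 3 and 4 at 70.1% to 80.2%, and the scanner software used an earlier protocol version for the first pair. Smooth muscle marker genes were bright at all sites (mean log2 level over 5 tested markers 13.33 to 16.72), and so were endothelial ones (5 tested markers, 10.80 to 13.07). Replicate 2 of the jugular control at day 14 stood apart from the other controls of that day. Its adipocyte markers averaged 14.44 (the other 3 controls 7.85 to 9.76) and its smooth muscle markers 13.33 (the others 16.09 to 16.72). Day 14 differences that passed are therefore also given without replicate 2, as are some that did not. Graft-site samples of day 14 were rich in adipocyte markers too: anastomosis replicate 3 (13.98) and downstream replicates 2 (13.78) and 4 (12.58). Leaving out replicate 2 keeps anastomosis replicate 3 and downstream replicate 4 in the fit.

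Solute carriers work in 2 broad ways. Those of the cell surface import nutrients, exchange one amino acid for another or set ion gradients, while those of mitochondria, lysosomes and the Golgi apparatus supply the organelle or empty it. In the vessel wall they serve glucose and amino acid uptake, lactate transport, and the handling of calcium and protons in smooth muscle. Several act in pairs: the light chains of the SLC7 family need SLC3A2 or SLC3A1 as a heavy chain to reach the surface.

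Where a gene had several probes, the question arose whether they moved together, so probe sequences are shown for genes whose later results turn on this. All are 60-base probes from the array files, printed 5′ to 3′ in lower case. The first 2 are the dimmer probes of SLC16A1, at bases 419 and 1086 of the transcript named in the array design.
SLC16A1, base 419: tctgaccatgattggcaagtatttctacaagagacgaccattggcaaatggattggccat
SLC16A1, base 1086: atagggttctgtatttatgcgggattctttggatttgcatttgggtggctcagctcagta
Those of SLC26A6 lay at bases 1816 and 2151, and the probe at base 2151 was the brighter.
SLC26A6, base 1816: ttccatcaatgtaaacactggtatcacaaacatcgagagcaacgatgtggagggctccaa
SLC26A6, base 2151: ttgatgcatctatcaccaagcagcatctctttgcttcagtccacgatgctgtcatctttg
One of the dimmer probes of SLC38A9 and the dimmer probe of SLC25A6 follow, and last the single probe of SLC30A1.
SLC38A9, base 537: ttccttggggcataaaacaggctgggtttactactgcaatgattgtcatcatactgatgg
SLC25A6, base 386: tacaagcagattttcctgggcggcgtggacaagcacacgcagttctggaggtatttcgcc
SLC30A1, base 1441: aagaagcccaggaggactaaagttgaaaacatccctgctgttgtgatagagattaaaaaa

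Of the 72 genes, 44 were well above background in all 24 samples, and 65 were well above it in at least 4 samples and so were tested. The 7 that were not tested included the insulin-responsive glucose transporter SLC2A4, the bile acid transporter SLC10A1, the choline transporter SLC5A7 and the anion exchangers SLC26A3 and SLC26A4, all 5 of which were well above background in 0 samples. The renal salt cotransporter SLC12A1 was so in 1 sample and the peptide transporter SLC15A2 in 2. For these genes no level was measured, which does not show that they were absent from the vein.

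At day 5, 10 of the 65 tested genes rose and 5 fell at the anastomosis relative to the jugular control, the comparison that asks how the graft junction differs from control vein early on. Of all features, 9.10% rose and 10.3% fell there. The share past the threshold (adjusted p below 0.05, limma) was 23.1%, against 19.4% of all features tested and 30% of the features with a gene symbol, so the count is near that of other genes. The median difference over the 65 genes was 0.01 on the log2 scale and over all features 0.00. At an unadjusted p under 0.05 there were 19. At the downstream vein on the same day 5 rose and 1 fell (9.23%, against 8.21% of all features, of which 3.21% rose and 5.00% fell; median 0.03, against 0.01). At day 14, 4 rose and 4 fell at the anastomosis (12.3%, against 8.82% of all features, of which 4.77% rose and 4.05% fell; median 0.04, against 0.01). At the downstream vein at day 14 0 passed, with 14 at an unadjusted p under 0.05 (0.907% of all features passed, 0.633% higher and 0.274% lower). Between them, 19 genes passed in at least 1 comparison and 46 of the tested genes in none. The matching share over all features was not counted. Both graft sites of a day were set against the same control samples, and a gene that passes in both sites is therefore not an independent repeat.

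**Figure D1:**
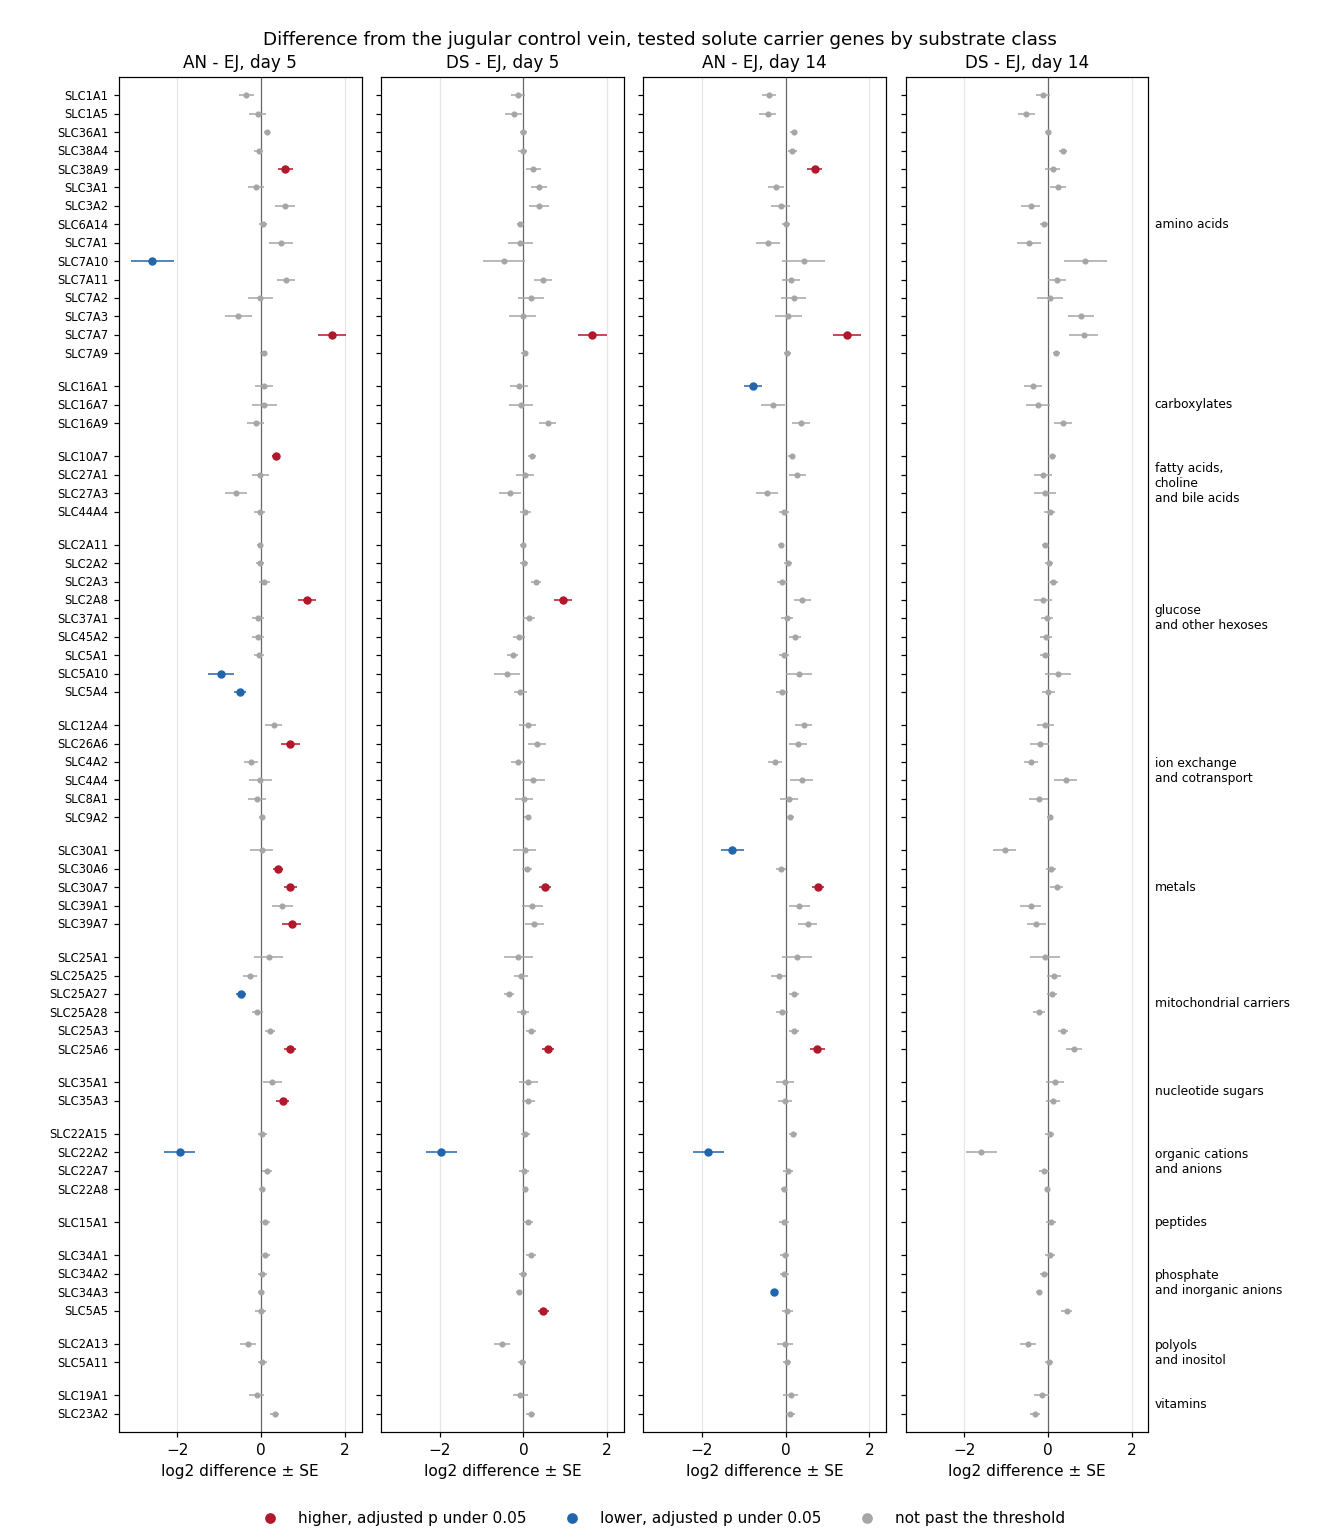
Differences from the jugular control vein (EJ) for 63 of the 65 tested solute carrier genes, in 4 panels for the anastomosis (AN) and the downstream vein (DS) at day 5 and day 14; the x axis is the log2 difference, bars are the SE from limma, and genes are grouped by substrate class. Coloured points passed an adjusted p of 0.05: 15, 6, 8 and 0 genes from the left panel to the right one.

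Among the amino acid carriers, SLC7A7 rose most. It encodes the light chain of a transporter that exports cationic amino acids such as arginine and lysine in exchange for neutral ones, and in humans it is prominent in monocytes and macrophages. At day 5 its normalised log2 level was 12.06, 11.88, 11.48 and 11.59 in the anastomosis samples of replicates 1 to 4, 11.56, 12.21, 11.48 and 11.61 in the downstream samples, and 10.64, 10.06, 9.50 and 10.05 in the jugular controls. No graft-site sample overlapped the controls at this day. The difference was 1.69 ± 0.34 at the anastomosis (SE; 3.22-fold, adjusted p = 0.00398) and 1.65 ± 0.34 downstream (adjusted p = 0.0142), higher in 4 of 4 pairs at each site.

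At day 14 SLC7A7 stood at 12.49, 11.46, 11.27 and 12.25 in the anastomosis samples and at 11.01, 11.87, 11.03 and 11.08 in the downstream ones, against 10.68, 11.75, 9.48 and 9.67 in the jugular controls. The control of replicate 2, the one rich in adipocyte markers, lay among the graft samples. The anastomosis was higher by 1.47 ± 0.34 (adjusted p = 0.0187, higher in 3 of 4 pairs), and without replicate 2 by 2.06. Downstream the difference was 0.85 ± 0.34 and did not pass (adjusted p = 0.255), nor did it without replicate 2 (1.09). A second SLC7A7 probe was well above background in 8 of 24 samples and differed by 0.23 ± 0.13 at the anastomosis on both days (adjusted p = 0.276 and 0.302), so the rise rests on the bright probe.

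Some macrophage markers rose in the comparisons in which SLC7A7 passed. Of 7 listed, 5 were tested and CD68 and CSF1R were not; 3 of the 5 rose at the anastomosis at day 5, 3 downstream at day 5 and 3 at the anastomosis at day 14, and 0 downstream at day 14. Their mean log2 level ranged over 12.75 to 13.10 in the anastomosis samples at day 5, 12.16 to 13.15 downstream and 11.56 to 11.72 in the controls. At day 14 it was 12.43 to 13.43, 10.76 to 12.67 and 10.93 to 12.03 in the same order. Sample by sample, markers and SLC7A7 did not always go together at day 14. In replicate 2 the marker mean was the lowest of its group downstream (10.76) and in the control (10.93). SLC7A7 was the highest of its group in the same samples (11.87 and 11.75). At the anastomosis, replicates 1 and 4 were the higher ones in both. Their part in the SLC7A7 result was not tested, and more cells of a type and more RNA per cell cannot be told apart in such tissue samples.

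SLC7A10 had the largest fall of all solute carriers with the processing used here. The ranking depends on how dim values are treated. For SLC22A2, described below, the difference at the anastomosis at day 5 was -4.40 with Feature Extraction's processed signals. In the authors' deposited table it was -4.16. SLC7A10 exchanges small neutral amino acids such as serine, glycine and alanine, and is known in neurons and on fat cells. At day 5 its log2 level was 7.64, 8.09, 9.79 and 9.54 in the anastomosis samples, 10.69, 11.16, 11.34 and 10.43 downstream, and 10.77, 10, 12.13 and 12.57 in the jugular controls. All 4 anastomosis samples lay below every downstream and control sample. The anastomosis differed from the control by -2.60 ± 0.51 (6.06-fold lower, adjusted p = 0.00314, lower in 4 of 4 pairs), and the downstream vein by -0.46 ± 0.51 (adjusted p = 0.620). Set against each other, anastomosis and downstream vein differed by -2.14 ± 0.51, lower in 4 of 4 pairs, with an adjusted p of 0.422 over all features and an unadjusted p of 8.08e-04.

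By day 14 the SLC7A10 levels were 11.19, 10.78, 10.79 and 10.50 at the anastomosis, 11.97, 10.57, 10.94 and 11.60 downstream, and 9.36, 11.55, 9.89 and 10.72 in the jugular controls. The 3 sites overlapped, and the differences of 0.43 ± 0.51 at the anastomosis and 0.89 ± 0.51 downstream did not pass (adjusted p = 0.666 and 0.439). Without replicate 2 they were 0.83 and 1.51, and neither passed. The anastomosis itself was 2.04 ± 0.47 higher at day 14 than at day 5 (adjusted p = 0.307, limma on the 8 anastomosis samples). The change of the anastomosis-control difference between the days was 3.03 ± 0.72 (adjusted p = 0.395). Adipocyte markers, 6 of 6 tested, ranged over 7.86 to 9.48 at the anastomosis, 8.46 to 10.73 downstream and 8.81 to 10.87 in the controls at day 5, and 0 of the 6 passed at either day. At day 14 they ranged over 9.14 to 13.98, 8.29 to 13.78 and 7.85 to 14.44 in that order of sites. Their part in the SLC7A10 difference was not tested.

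SLC38A9, a carrier of the lysosome that senses arginine there, rose by 0.58 ± 0.18 at the anastomosis at day 5 (adjusted p = 0.0325) and by 0.69 ± 0.18 at day 14 (adjusted p = 0.0280), in 4 of 4 pairs each; without replicate 2 the day 14 difference was 0.75 and did not pass. At day 5 the levels were 9.79, 8.81, 10.52 and 10.58 at the anastomosis and 9.17, 8.47, 9.76 and 9.97 in the controls. The groups overlap, and the difference shows only pair by pair. With slide as a random block SLC38A9 passed on neither day (adjusted p = 0.167 at day 5 and 0.126 at day 14). At day 5 it passed in 0 of the 4 fits that left out 1 replicate. Its 3 probes did not move alike: another rose by 0.35 ± 0.09 at day 5 (adjusted p = 0.0136) but differed by 0.10 ± 0.09 at day 14, and the one printed above differed by 0.12 ± 0.10 at day 5 and -0.17 ± 0.10 at day 14 (adjusted p = 0.505 and 0.329).

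The other amino acid carriers did not pass in any comparison. SLC3A2, the heavy chain that SLC7A7 and SLC7A11 need, differed by 0.57 ± 0.23 at the anastomosis at day 5 (adjusted p = 0.0986, higher in 4 of 4 pairs; 0.75 and past the threshold in the authors' deposited table) and by 0.37 ± 0.23 downstream, and by -0.12 ± 0.23 and -0.41 ± 0.23 at day 14 (0.18 and -0.43 without replicate 2). The cystine importer SLC7A11, well above background in 16 of 24 samples, differed by 0.59 ± 0.21 at the anastomosis at day 5 (adjusted p = 0.0655), while in the authors' deposited table the difference was 2.18 there and 1.66 downstream, and both passed. The glutamine carrier SLC1A5 differed by -0.08 ± 0.20 at the anastomosis at day 5, with levels of 13.71 to 14.53 in the anastomosis samples and 13.72 to 14.69 in the controls. For SLC7A1, SLC7A2 and SLC7A3, importers of arginine and lysine, the differences at the anastomosis at day 5 were 0.47 ± 0.29, -0.02 ± 0.30 and -0.55 ± 0.32. The other members of this class (SLC1A1, SLC3A1, SLC6A14, SLC7A9, SLC36A1 and SLC38A4) lay between -0.35 and 0.14 in that comparison.

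**Figure D2:**
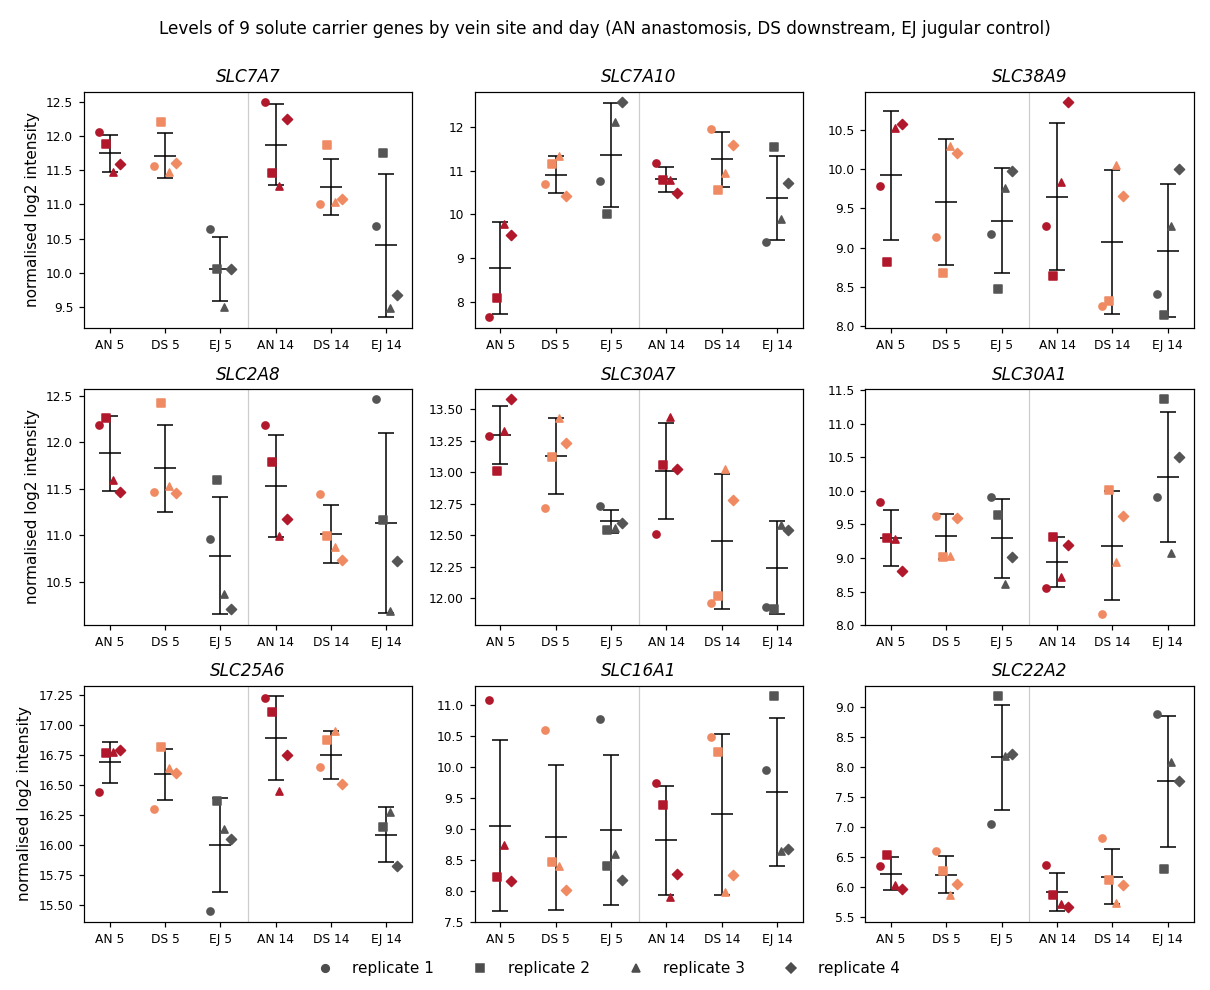
Normalised log2 intensity (y axis) of 9 solute carrier genes in each of the 24 samples, by site and day (AN anastomosis, DS downstream, EJ jugular control; 5 and 14 are days). Marker shapes are the replicates, bars the mean ± SD of 4 samples (3 for SLC25A6 in EJ 14); all 4 SLC7A10 samples of the anastomosis at day 5 lie below those of the other sites at that day, and SLC16A1 splits by replicate more than by site.

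Among the hexose carriers, SLC2A8 rose. It is a glucose transporter that sits mostly on membranes inside the cell. Its day 5 levels were 12.19, 12.26, 11.59 and 11.47 at the anastomosis, 11.47, 12.42, 11.53 and 11.45 downstream, and 10.96, 11.59, 10.37 and 10.21 in the jugular controls. The control of replicate 2 overlapped the graft samples, while within each pair the graft sample was higher. The difference was 1.09 ± 0.21 at the anastomosis (2.14-fold, adjusted p = 0.00268) and 0.94 ± 0.21 downstream (adjusted p = 0.0180). At day 14 it was 0.40 ± 0.21 and -0.12 ± 0.21 (adjusted p = 0.247 and 0.835), with a control of 12.46 in replicate 1 above all other samples of that day.

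SLC5A10 and SLC5A4, of the sodium-glucose cotransporter family, fell at the anastomosis at day 5. SLC5A10 stood at 6.91, 7.46, 7.56 and 7.28 at the anastomosis and at 7.88, 8.25, 8.59 and 8.38 in the controls, with no overlap (-0.97 ± 0.31, adjusted p = 0.0389). Its second probe, also well above background in all 24 samples, differed by 0.03 ± 0.08 (adjusted p = 0.882). SLC5A4 fell by 0.51 on the log2 scale (SE 0.15, adjusted p = 0.0317), with 8.58 to 9.36 at the anastomosis and 9.25 to 9.71 in the controls. At day 14 the differences were 0.31 ± 0.31 for SLC5A10 and -0.09 ± 0.15 for SLC5A4, and neither passed (0.35 and -0.21 without replicate 2). With median centring the day 5 difference of SLC5A4 was -0.14 and did not pass.

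SLC2A3, the high-affinity glucose transporter of neurons and white blood cells, differed by 0.08 ± 0.12 at the anastomosis and 0.30 ± 0.12 downstream at day 5 (adjusted p = 0.720 and 0.133). The remaining hexose carriers tested (SLC2A2, SLC2A11, SLC5A1, SLC37A1 and SLC45A2) differed by -0.08 to -0.02 at the anastomosis at day 5. In all, 1 of the 9 tested hexose carriers rose and 2 fell at that site and day, 1 rose downstream at day 5, and 0 passed at day 14. Of all features, 19.4% passed at the anastomosis and 8.21% downstream at day 5, and 8.82% and 0.907% at day 14, so that counts this small over 9 genes are near the background.

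Of the 5 metal carriers, all of them zinc transporters, 3 rose at the anastomosis at day 5 and 0 fell (median difference 0.50), where 9.10% of all features rose and 10.3% fell; with 5 genes nothing is read from that share. SLC30A7, which loads zinc into the Golgi apparatus, had the lowest adjusted p of them. It stood at 13.29, 13.01, 13.33 and 13.58 at the anastomosis, 12.72, 13.12, 13.43 and 13.23 downstream, and 12.73, 12.54, 12.56 and 12.60 in the jugular controls. All anastomosis samples lay above all controls, while 1 downstream sample lay just below the highest control. The differences were 0.70 ± 0.15 at the anastomosis (adjusted p = 0.00489) and 0.52 ± 0.15 downstream (adjusted p = 0.0428, higher in 3 of 4 pairs). At day 14 the anastomosis was again higher, by 0.77 ± 0.15 in 4 of 4 pairs (adjusted p = 0.00758; 0.64 without replicate 2), and the downstream vein differed by 0.21 ± 0.15 (adjusted p = 0.536).

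SLC39A7 releases zinc from the endoplasmic reticulum and Golgi into the cytosol. Its day 5 levels were 13.52, 12.74, 12.38 and 12.58 at the anastomosis and 12.37, 12.02, 11.90 and 12.02 in the controls, without overlap (0.73 ± 0.23, adjusted p = 0.0419). SLC30A6, a Golgi zinc transporter, rose by 0.40 ± 0.12 (adjusted p = 0.0350, higher in 4 of 4 pairs). SLC39A1, a zinc importer of the cell surface, differed by 0.50 ± 0.25, higher in 4 of 4 pairs (adjusted p = 0.194). At day 14 these 3 differed from the control by 0.53 ± 0.23, -0.10 ± 0.12 and 0.32 ± 0.25 and did not pass; without replicate 2, SLC39A7 differed by 0.25 and SLC30A6 by 0.00.

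SLC30A1, the exporter of zinc at the cell surface, showed the opposite sign at the later day. At day 14 it stood at 8.55, 9.31, 8.71 and 9.20 at the anastomosis, 8.16, 10.01, 8.94 and 9.62 downstream, and 9.91, 11.36, 9.07 and 10.51 in the jugular controls. Replicate 3 of the control overlapped the anastomosis samples, and in each of the 4 pairs the graft sample was the lower. The anastomosis differed by -1.27 ± 0.27 (adjusted p = 0.0122), by -1.01 without replicate 2 and by -0.88 in the authors' deposited table, and passed in neither of these. The downstream vein differed by -1.03 ± 0.27 (adjusted p = 0.09). At day 5 the differences were 0.01 ± 0.27 and 0.03 ± 0.27, and the change of the anastomosis-control difference between the days was -1.28 ± 0.38 (adjusted p = 0.416).

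Among the mitochondrial carriers, SLC25A6 rose and SLC25A27 fell at the anastomosis at day 5. SLC25A6, which swaps ADP for ATP across the inner membrane, stood at 16.44, 16.77, 16.78 and 16.79 at the anastomosis, 16.30, 16.82, 16.64 and 16.60 downstream, and 15.45, 16.37, 16.14 and 16.05 in the jugular controls. Only the downstream sample of replicate 1 lay below the highest control. The differences were 0.69 ± 0.14 (adjusted p = 0.00519) and 0.59 ± 0.14 (adjusted p = 0.0277). The downstream one was 0.53 with Feature Extraction's processed signals and 0.53 with quantile normalisation, and passed in neither. It did not pass in any fit that left out 1 replicate. At day 14 the anastomosis samples read 17.23, 17.11, 16.45 and 16.75, against 16.15, 16.28 and 15.83 in the controls of replicates 2 to 4; the control spot of replicate 1 was marked as an outlier and left out. They did not overlap, and the difference was 0.76 ± 0.19 (adjusted p = 0.0251). It was 0.66 without replicate 2 and 0.48 in the authors' deposited table, and passed in neither. At the anastomosis the second probe differed by 0.56 ± 0.24 at day 5 and 0.50 ± 0.24 at day 14 (adjusted p = 0.116 and 0.208). Downstream at day 5 it differed by 0.38 ± 0.24 (adjusted p = 0.347). Close paralogues of this gene were not checked for shared sequence.

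SLC25A27, of the uncoupling protein family, differed by -0.48 ± 0.12 (adjusted p = 0.0114, lower in 4 of 4 pairs) and downstream by -0.34 ± 0.12 (adjusted p = 0.0831). With median centring the anastomosis value was -0.05 and did not pass. The phosphate carrier SLC25A3 differed by 0.22 ± 0.12 at the anastomosis, higher in 4 of 4 pairs (adjusted p = 0.252). The citrate carrier SLC25A1, the iron carrier SLC25A28 and the ATP-magnesium carrier SLC25A25 differed by 0.18 ± 0.35, -0.09 ± 0.14 and -0.27 ± 0.17.

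The organic cation transporter SLC22A2, known from the kidney, fell at both graft sites at day 5 and at the anastomosis at day 14. At day 5 it read 6.35, 6.53, 6.03 and 5.96 at the anastomosis, 6.60, 6.26, 5.87 and 6.05 downstream, and 7.05, 9.18, 8.19 and 8.22 in the jugular controls. At day 14 it read 6.37, 5.87, 5.72 and 5.67 at the anastomosis, 6.81, 6.12, 5.73 and 6.03 downstream, and 8.89, 6.29, 8.09 and 7.76 in the controls. The day 5 groups did not overlap, and at day 14 the overlap came from replicate 2 of the control.

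SLC22A2 was well above background in 4 of 4 controls at day 5 and 3 of 4 at day 14, but in 1 of 4 anastomosis samples at each day and in 2 and 1 of 4 downstream samples. Its graft-site values therefore sit near the lower end of what the arrays measured. The differences were -1.94 ± 0.37 (adjusted p = 0.00276) at the anastomosis and -1.96 ± 0.37 (adjusted p = 0.00990) downstream at day 5. At day 14 they were -1.85 ± 0.37 (adjusted p = 0.00959) and -1.59 ± 0.37 (adjusted p = 0.0600), and -2.33 and -2.06 without replicate 2, where both passed. The size depended on how the dim values were treated. With Feature Extraction's processed signals the differences were -4.40 and -4.71 at day 5 and -5.06 and -3.89 at day 14, at the anastomosis and downstream in turn, and all 4 passed. In the authors' deposited table they were -4.16 and -5.20 at day 5 and -4.34 and -3.93 at day 14, and all 4 passed. Anastomosis and downstream vein differed from each other by 0.02 ± 0.37 at day 5.

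Some smooth muscle markers fell in the day 5 comparisons in which SLC22A2 fell. Of 7 listed, 5 were tested: 3 fell at the anastomosis and 2 downstream at day 5, and 0 passed at day 14. Their mean level was 13.73 to 15.32 at the anastomosis, 13.63 to 15.34 downstream and 16.01 to 16.71 in the controls at day 5, and 13.81 to 14.82, 13.54 to 15.97 and 13.33 to 16.72 at day 14. Skeletal muscle markers (5 of 6 tested) fell in 2 cases at the anastomosis at day 5, with 6.54 to 6.82 against 7.07 to 7.63 in the controls. Other lists changed in that comparison too: 4 of 4 proliferation markers and 3 of 5 tested macrophage markers rose. The part of any list in the SLC22A2 result was not tested. The other 3 carriers of the class, SLC22A7, SLC22A8 and SLC22A15, differed by 0.01 to 0.13 at that site and day.

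SLC16A1, which carries lactate and pyruvate with a proton, fell at the anastomosis at day 14. Its levels were 9.74, 9.38, 7.90 and 8.27 at the anastomosis, 10.48, 10.25, 7.98 and 8.26 downstream, and 9.95, 11.14, 8.65 and 8.67 in the jugular controls. The replicates differed far more than the sites, and the fall shows within pairs, in 4 of 4 (-0.78 ± 0.21, adjusted p = 0.0345; -0.46 without replicate 2 and -0.35 with median centring, where it did not pass). All 3 probes passed, the dimmer ones with -0.46 ± 0.13 at base 419 and -0.56 ± 0.12 at base 1086 (adjusted p = 0.0436 and 0.0134). At day 5 the level of replicate 1 was 11.08 at the anastomosis, 10.60 downstream and 10.78 in the control, against 8.02 to 8.74 in the other 9 samples, and the difference of the anastomosis from the control did not pass (0.07 ± 0.21, adjusted p = 0.880). The related carriers SLC16A7 and SLC16A9 did not pass.

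**Figure D3:**
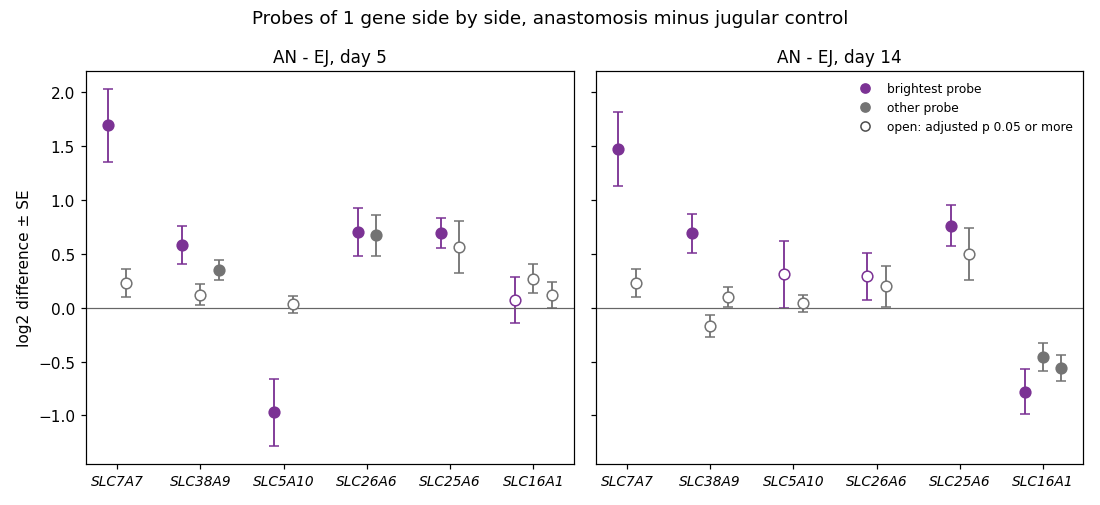
Log2 difference between anastomosis and jugular control (y axis, ± SE from limma) for every probe of 6 genes with several probes, at day 5 (left) and day 14 (right); filled points passed an adjusted p of 0.05. Both SLC26A6 probes rose at day 5 and all 3 SLC16A1 probes fell at day 14, whereas the second probes of SLC7A7 and SLC5A10 did not pass on either day.

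Of 8 ion exchangers tested, 1 passed at the anastomosis at day 5, near the 19.4% of all features: SLC26A6, which exchanges chloride for bicarbonate or oxalate. It stood at 9.52, 8.57, 8.85 and 9.37 there and at 8.18, 8.16, 8.40 and 8.76 in the controls, which overlap across but not within pairs (0.70 ± 0.22, adjusted p = 0.0348). Both of its printed probes passed, the one at base 1816 with 0.67 ± 0.19 (adjusted p = 0.0254). The sodium-calcium exchanger SLC8A1 and the sodium-bicarbonate cotransporter SLC4A4 differed by -0.10 ± 0.22 and -0.02 ± 0.27 (adjusted p = 0.832 and 0.975). The anion exchanger SLC4A2 and the potassium-chloride cotransporter SLC12A4 differed by -0.24 ± 0.17 and 0.30 ± 0.20.

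In the smaller classes, 4 further genes passed in 1 comparison each. SLC35A3, which brings the sugar nucleotide for N-acetylglucosamine into the Golgi, rose by 0.51 ± 0.16 at the anastomosis at day 5 (adjusted p = 0.0400), and SLC10A7, of the bile acid carrier family, by 0.36 ± 0.09 (adjusted p = 0.00877), each in 4 of 4 pairs. SLC10A7 was well above background in 2 of 4 controls, and its groups overlapped (7.02 to 8.74 against 6.67 to 8.47). Its difference was 1.06 with processed signals and 0.94 in the authors' deposited table, and passed in both. With slide as a random block or no block SLC10A7 did not pass. The iodide transporter SLC5A5 passed downstream at day 5 (0.47 ± 0.13, adjusted p = 0.0358; 0.53 in the authors' deposited table, where it did not pass) and not at the anastomosis (-0.01 ± 0.13); the difference between those sites was -0.48 ± 0.13 (adjusted p = 0.422). The phosphate cotransporter SLC34A3 fell by 0.27 on the log2 scale at the anastomosis at day 14 (SE 0.07, adjusted p = 0.0360), at levels of 6.42 to 6.80 against 6.65 to 7.14 in the controls; the difference was -0.31 without replicate 2 and -0.60 in the authors' deposited table, and passed in neither.

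The folate carrier SLC19A1 (-0.11 ± 0.18), the vitamin C carrier SLC23A2 (0.32 ± 0.11, adjusted p = 0.0616), the fatty acid transport proteins SLC27A1 (-0.02 ± 0.21) and SLC27A3 (-0.60 ± 0.27) and the inositol carrier SLC2A13 (-0.32 ± 0.19) did not pass at the anastomosis at day 5. Nor did the peptide carrier SLC15A1 (0.10 ± 0.12), whose probe was well above background in 10 of 24 samples. Of a list of 28 transporters to be named whatever their values, 12 were on the array under these names, 11 were tested, and 2 of them (SLC16A1 and SLC30A1) passed in any comparison. The share of all features that passed in any comparison was not counted.

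Between the graft sites and between the days no solute carrier passed. Anastomosis against downstream vein gave 0 of 65 at day 5 and 0 at day 14 (limma; 7 and 13 at an unadjusted p under 0.05), where 0% of all features passed on either day. The differences at day 14 ranged from -0.73 to 0.81, with SLC39A7 at 0.81 ± 0.23 (adjusted p = 0.175). The change of the site differences between days gave 0 for the anastomosis and 0 for the downstream vein (10 and 6 unadjusted; 0% of all features). Day 14 against day 5 gave 0 at the anastomosis (6 unadjusted; 0.00595% of all features, 0.00297% higher and 0.00297% lower), 0 downstream (4 unadjusted; 0%) and 0 in the jugular control (0 unadjusted; 0%). The rise of SLC7A7 at day 5 and its value downstream at day 14 are thus not shown to differ.

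The counts depended on which replicates entered. Leaving out replicates 1, 2, 3 or 4 in turn gave 7, 8, 8 and 6 genes at the anastomosis at day 5, 6, 2, 0 and 0 downstream at day 5, and 4, 3, 4 and 0 at the anastomosis at day 14. Of all features, 4742, 5166, 3851 and 2419 then passed at the anastomosis at day 5, against 6513 with all replicates. Downstream at day 5 the counts were 4474, 375, 6 and 2, against 2762. At the anastomosis at day 14 they were 1724, 3079, 1654 and 139, against 2965. The 3 results that passed without each replicate in turn were SLC7A7 (1.59 to 1.78), SLC7A10 (-2.83 to -2.42) and SLC2A8 (1.04 to 1.24), all at the anastomosis at day 5. Within replicates 1 and 2 the mean paired differences of these genes were 1.62, -2.52 and 0.95, and within replicates 3 and 4 they were 1.76, -2.68 and 1.24. Fitted without the block, 4 genes passed at the anastomosis at day 5 (SLC7A7, SLC7A10, SLC22A2 and SLC25A6), 2 downstream at day 5 (SLC7A7 and SLC22A2) and 1 at the anastomosis at day 14 (SLC22A2). Of all features, 2303, 329 and 550 passed in that fit, in the same order. All 29 differences that passed kept their sign in both pairs of replicates. The 29 were chosen on all 4 replicates, and 26 of them went the same way in 4 of 4 pairs. Agreement within pairs of replicates is therefore not an independent check. Replicates 1 and 2 alone kept 0 of the 29 calls, and replicates 3 and 4 alone kept 13.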

How the data were processed

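Total RNA of 24 pig vein samples was extracted with the RNeasy Micro kit and labelled with Agilent's 2-colour Quick Amp protocol, per the labels' protocols. The 16 arrays were quantified with Agilent Feature Extraction, per the file headers. The deposited files hold raw intensity values (spot mean and local background median) and, per the file headers, processed intensity values with background subtracted and dyes normalised by that software. The authors also deposited a table of log2 values for which the sources used here name no method. A jugular control (Cy3) and the anastomosis sample (Cy5) of the same number and day shared an array. Each downstream sample (Cy5) was on another array. The green channel of that array entered the loess and Aquantile normalisation of the downstream values but was not used as a sample.

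Intensities were corrected with normexp (offset 50), normalised by loess and Aquantile in limma 3.58.1 (R 4.3.3), and taken per channel on the log2 scale. Control and outlier spots were left out. Of 43603 probes, 8471 (19.4%) had a symbol, from gene names, gene IDs or RefSeq accessions. A further 36 SLC symbols, reached only through such a lookup, were not members. The 33631 features that 4 or more of the 24 samples held well above background were tested with lmFit and eBayes, with the 3 same-numbered samples of each day as 1 of 8 blocks. Day 14 was compared with day 5 within a site without a block. P-values were two-sided, with Benjamini-Hochberg adjustment across every tested feature in each of 11 comparisons. The block came from the arrays shared by control and anastomosis samples, and from the slide that all 3 sites of a number and day shared. Same-numbered samples of a day correlated at 0.223 to 0.816 on an array and 0.192 to 0.758 across arrays, all over 0.1. Same-numbered samples of a site on the other day correlated at 0.0731 to 0.623, 11 of 12 over 0.1. That correlation is thus not particular to a day, and the comparisons between days do not account for it. Whether the same-numbered samples of a day are 1 animal is not stated.

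The precision is limited by 4 samples a group. The fit was tested on simulated data with independent noise and a block effect. Those data held neither the dye difference nor the correlation across days, so the test says nothing about either. The named genes were, per comparison, those past the threshold, plus the list of 28 and those far from their group. Some members enter the counts but are not reported here by name. The members, classes and gene lists were chosen with earlier results of these data known. Alternatives were other background corrections and normalisations, filters, replicates left out or in part, no block, slide as a random block and the authors' table.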

Additional observations from a re-analysis of the deposited data

Results flagged for a closer look

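In 22 of 389 groups of 4 samples (5.66%), 1 sample lay far from the other 3 by Dixon's gap test, which chance alone does in about 1 in 20 groups. All values are normalised log2 levels.

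At day 5, the lactate carrier SLC16A1 was high in replicate 1 of the downstream vein (10.60, the others 8.02 to 8.46) and of the jugular control (10.78, the others 8.17 to 8.59). Also apart were SLC2A8 in downstream replicate 2 (12.42), SLC3A2 in downstream replicate 3 (10.55), SLC30A6 in downstream replicate 4 (8.48), SLC25A6 in anastomosis replicate 1 (16.44) and SLC45A2 in control replicate 1 (7.70).

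At day 14, the arginine importer SLC7A1 was low in anastomosis replicate 3 (10.98) and high in control replicate 2 (13.43, the others 11.90 to 12.10). The amino acid carrier SLC38A4 was low in replicate 4 of the anastomosis (6.23) and of the control (6.20). At the anastomosis SLC6A14 was low in replicate 3 (6.55), and SLC7A9 (6.28) and SLC19A1 (11.27) in replicate 4. In the downstream vein SLC7A7 was high (11.87) and SLC5A4 low (9.08) in replicate 2, SLC5A1 was high in replicate 1 (7.59) and SLC22A15 in replicate 3 (7.78). In the control SLC27A3 was high (12.69), and SLC25A3 (15.26) and SLC25A25 (6.20) low, in replicate 1, while SLC36A1 was high in replicate 3 (6.71).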

How the results depend on the processing

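Counts of solute carriers past the threshold are given for the anastomosis at day 5 (15), the downstream vein at day 5 (6), the anastomosis at day 14 (8) and the downstream vein at day 14 (0), each against the jugular control. With median centring in place of loess and Aquantile they were 25, 12, 27 and 12, split into higher and lower as 17 and 8, 9 and 3, 15 and 12, and 6 and 6. Of all features, 12718, 7636, 15326 and 8045 then passed, in place of 6513, 2762, 2965 and 305. The share of higher calls over all features was 56.4% in place of 39.1% downstream at day 5 and 42.6% in place of 69.8% downstream at day 14. With median centring SLC1A5 passed with the other sign at the anastomosis at day 5 (0.85). The fit with no replicate block gave 4, 2, 1 and 0 (2303, 329, 550 and 11 of all features). Replicates 1 and 2 alone gave 0 in each (2, 0, 1 and 0 of all features). Replicates 3 and 4 alone gave 6 at the anastomosis at day 5 and 3 downstream at day 14 (4000 and 1813 of all features). Leaving out 1 replicate gave 6 to 8, 0 to 6, 0 to 4 and 0 to 1, and 0 to 1 for anastomosis against downstream vein at day 14 (SLC38A9 without replicate 3). The downstream count at day 14 was 1 with no background correction, 1 with Feature Extraction's processed signals and 1 with the authors' table (SLC22A2 each time), and 2 with slide as a random block (SLC22A2 and SLC25A6). The authors' table also gave 10 for the anastomosis at day 14 against day 5, 6 higher and 4 lower, where 3117 of all features passed in place of 2. For the change of the anastomosis-control difference it gave 1 (SLC5A10), where 42 of all features passed in place of 0. The causes were not tested.

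Of the 29 differences that passed, 29 still did with no background correction and with no filter on dim probes, 26 with median centring, 26 with quantile normalisation, 25 with the authors' table, 24 with processed signals, 22 with slide as a random block, 7 with no replicate block, and 16, 13, 12 and 6 without replicates 1, 2, 3 and 4; 0 changed sign. The replicate number as a block across the days left the day counts at 0. The 7 lost with slide as a random block were SLC10A7, SLC25A27, SLC30A6 and SLC38A9 at the anastomosis at day 5, SLC5A5 downstream at day 5, and SLC16A1 and SLC38A9 at the anastomosis at day 14. Slide as a random block could not be fitted for the comparisons between days. Dim genes such as SLC22A2 are limited by signal over background.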
